A study of Mus musculus with 2 samples.

Results

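Open chromatin was examined at 8 mouse genes for the formation and the secretion of platelet granules: Nbeal2, Vps33b, Vipas39, Slc35d3, Rab27a, Rab27b, Unc13d and Plek. The rule gives the genes by name and uses no measured value, and they are 8 of 21755 protein-coding genes of the annotation. The regions were the listed peaks that overlapped the body of a gene or lay within 50 kb of it. In those windows 94 regions were found in both samples, of 69539 such shared regions in the whole genome.

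The assay was ATAC-seq, in which a transposase cuts accessible DNA and leaves sequencing adapters in it, on primary megakaryocytes, the marrow cells that shed platelets. The only group held 2 biological replicates from adult male C57BL/6J mice aged 5 to 6 weeks, with 50000 cells a sample and no treatment or altered allele named in the labels. Both replicates carry the same donor record, so the spread between them may be technical, and the label of replicate 2 alone names sequencers. How the cells were isolated was not stated in the labels. No other cell type or condition was present, so the data answer where chromatin was open at these genes and how far the replicates matched, and they allow no test between groups.

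Platelets store proteins such as adhesion molecules and growth factors in alpha granules, and ADP, polyphosphate and serotonin in dense granules. Megakaryocytes build both kinds before platelets are released: membrane traffic from the Golgi and endosomes fills multivesicular bodies, from which the granules mature. On activation, small Rab GTPases and their effectors bring granules to the plasma membrane, where SNARE proteins and their partners of the Sec1/Munc18 and Munc13 families let the membranes fuse. Many of the same proteins serve the granules of neutrophils, mast cells, cytotoxic T cells and pigment cells.

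The labelled cell type was checked against markers, since a bulk sample mixes all its cells, and fewer cells with an open region cannot be told apart from a less open region in each cell. A shared region at most 500 bp from any annotated transcript start made the promoter of a gene open. Of 12 megakaryocyte markers 5 (41.7%) had an open promoter (Itga2b, Itgb3, Vwf, Gata1 and Pf4), against 59.8% of all protein-coding genes, and Gp1ba, Gp1bb, Gp5, Gp6, Gp9, Ppbp and Treml1 had none. Vwf and Gata1 were open at internal starts only, and Gp1ba and Gp9 had a promoter region in 1 replicate. Of 10 neutrophil markers 9 were open, among them Mmp8, Ltf and Camp, and of 8 monocyte and macrophage markers 6 were open. The counts were 2 of 6 for erythroid, 2 of 5 for mast cell and basophil, 1 of 5 for T cell, 1 of 4 for B cell and 1 of 4 for endothelial markers. At the 5′ end of the gene the counts were 3 for megakaryocyte, 7 for neutrophil, 5 for monocyte and macrophage, 2 for mast cell and basophil, and 0 for erythroid, T cell, B cell and endothelial markers. Mean fold enrichment at the open marker promoters ran from 4.56 to 13.5 for megakaryocyte, from 3.85 to 11.8 for neutrophil and from 5.64 to 14.1 for monocyte and macrophage markers. Rab27a, Rab27b, Unc13d and Plek are also used by neutrophils or other leukocytes, and the part of such cells in the values that follow was not tested.

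The sequences that carry the strongest signal away from promoters are shown first. A region was called distal where no part of it lay within 1 kb of an annotated start of any gene, and the lines give the 201 bases around the summit of the strongest distal region of 6 of the genes, on the plus strand of mm10. Vps33b is left out because its only distal region lay in an exon, and Rab27b is described by position. Capitals mark exact matches, on either strand, to the GATA letters AGATAA or TGATAA, the RUNX letters TGTGGT or TGCGGT, the ETS letters CCGGAA or AGGAAG and the PU.1 letters GAGGAAGT. Every PU.1 match holds an ETS match, because GAGGAAGT contains AGGAAG.
Nbeal2 chr9:110676651-110676851: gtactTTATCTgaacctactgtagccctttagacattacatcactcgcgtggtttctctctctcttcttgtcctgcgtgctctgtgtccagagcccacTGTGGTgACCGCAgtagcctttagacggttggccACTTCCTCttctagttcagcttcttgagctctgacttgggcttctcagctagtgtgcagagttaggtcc
Vipas39 chr12:87193100-87193300: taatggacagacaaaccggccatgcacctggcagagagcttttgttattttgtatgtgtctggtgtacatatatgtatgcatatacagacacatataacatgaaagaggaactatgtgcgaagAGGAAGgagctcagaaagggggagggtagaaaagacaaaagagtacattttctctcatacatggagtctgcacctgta
Slc35d3 chr10:19804885-19805085: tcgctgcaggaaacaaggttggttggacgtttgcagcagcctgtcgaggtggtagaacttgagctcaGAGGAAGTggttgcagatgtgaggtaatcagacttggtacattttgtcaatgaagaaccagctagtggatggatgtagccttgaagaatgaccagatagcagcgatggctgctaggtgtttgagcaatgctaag
Rab27a chr9:73030525-73030725: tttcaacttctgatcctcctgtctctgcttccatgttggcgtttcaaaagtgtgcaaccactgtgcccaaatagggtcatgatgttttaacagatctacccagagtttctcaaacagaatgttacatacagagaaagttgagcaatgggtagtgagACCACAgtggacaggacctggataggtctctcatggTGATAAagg
Unc13d chr11:116093816-116094016: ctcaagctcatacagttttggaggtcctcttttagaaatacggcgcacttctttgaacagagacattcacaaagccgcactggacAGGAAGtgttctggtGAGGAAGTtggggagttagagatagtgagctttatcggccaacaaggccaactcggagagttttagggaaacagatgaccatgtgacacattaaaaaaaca
Plek chr11:16932255-16932455: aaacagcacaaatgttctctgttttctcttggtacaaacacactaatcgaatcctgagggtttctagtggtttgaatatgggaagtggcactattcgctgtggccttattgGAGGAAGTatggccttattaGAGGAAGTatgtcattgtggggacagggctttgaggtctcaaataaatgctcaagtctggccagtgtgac
ETS letters were in 5 of the 6 sequences and PU.1 letters in 4, those of Nbeal2, Slc35d3, Unc13d and Plek. The Plek sequence held the PU.1 letters at 2 places, which began 11 and 31 bases after the summit. In the Unc13d sequence the PU.1 match began at the summit itself, 0 bases away. GATA letters were in the Nbeal2 and Rab27a sequences, 95 bases before and 92 bases after the summit, and both of these also held RUNX letters. A match describes the letters and does not show that a factor was bound.

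All 8 genes had an open promoter, against 59.8% of all protein-coding genes (13004 of 21755). Counting starts at the 5′ ends of genes alone, 8 of 8 were again open, against 54.4% of all protein-coding genes. Slc35d3 lost its call in the lists thresholded on the irreproducible discovery rate (IDR), a stricter list for each sample, and with a promoter window of 100 bp. The other 7 genes kept theirs under both, where any annotated start counted. The region at the 5′ end of Rab27b was in neither IDR list and lay 238 bp from the nearest Rab27b start. That of Plek was in the IDR list of replicate 2 only. With the IDR lists these genes were therefore open through internal starts. Fold enrichment, the authors' ratio of signal in a peak to its local background, had a median of 9.35 at the strongest promoter region of the 8 genes, against 11.5 over the 13004 open promoters (quartiles 8.66 and 14.3). Vps33b and Vipas39 were above that median and the other 6 genes were below it. The −log10 p of each gene was taken at the same region, that with the highest fold enrichment. By it the genes above the corresponding median were 3, Vipas39, Plek and Unc13d. For Nbeal2 this was a region in intron 1, with 61.2 and 54.4. Its region at the 5′ end, with 94.6 and 92.0, did not enter that count.

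**Figure D1:**
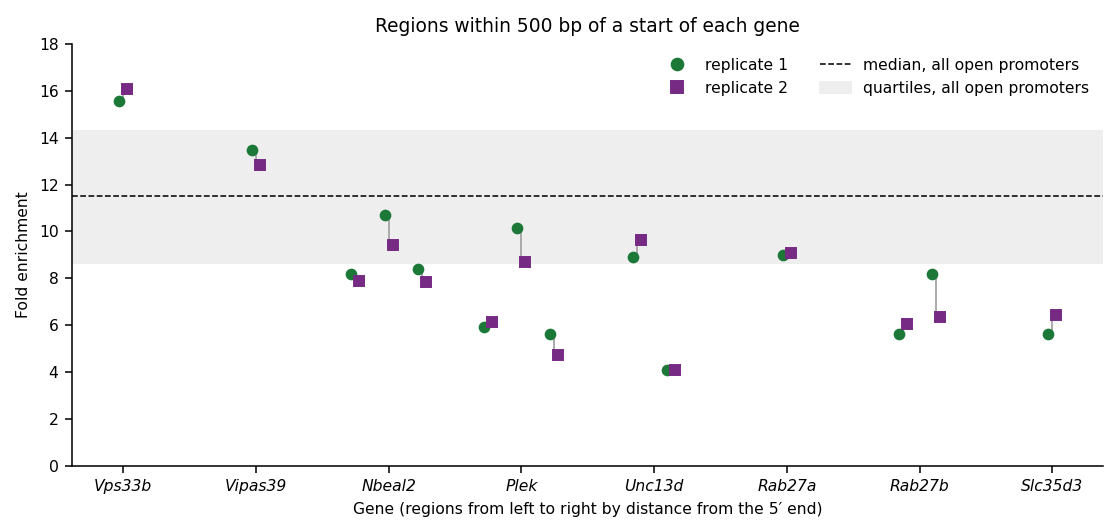
Fold enrichment of the 14 shared regions within 500 bp of an annotated start of the 8 genes, in replicate 1 (circles) and replicate 2 (squares). The dashed line and the band give the median of 11.5 and the quartiles of the strongest region over all open promoters. Both replicates of Vps33b and Vipas39 sit above the line, and all values of the other 6 genes sit below it.

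Ordered by the mean over the replicates, the strongest promoter regions ran from Vps33b through Vipas39, Nbeal2, Plek, Unc13d, Rab27a and Rab27b to Slc35d3. The replicate values of Vps33b did not overlap those of Vipas39, those of Vipas39 did not overlap those of Nbeal2, and those of Rab27a did not overlap those of Rab27b. The neighbours Nbeal2 and Plek, Plek and Unc13d, Unc13d and Rab27a, and Rab27b and Slc35d3 overlapped, so their order is within the spread of 2 replicates. The plot of promoter regions by gene shows both the steps and the overlaps.

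Among the genes for granule formation, Nbeal2 encodes a BEACH-domain protein needed for alpha granules, whose loss in people causes gray platelet syndrome. It lies on the minus strand at chr9:110624789-110654161. The region at its 5′ end, chr9:110653923-110654423, had a fold enrichment of 8.20 in replicate 1 and 7.88 in replicate 2, a mean of 8.04 ± 0.223 (SD, n = 2). A region at starts 8.73 kb into the gene, in intron 1 of the principal transcript (chr9:110644901-110645795), was higher, at 10.7 and 9.42. A further region at an annotated start, over exon 23 and beside the microRNA gene Mir8107, had 8.41 and 7.86. Nbeal2 therefore had 3 open regions at its starts, of which the one in intron 1 had the highest fold enrichment in both replicates. By −log10 p the region at the 5′ end was higher than it, with 94.6 and 92.0 against 61.2 and 54.4.

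The distal regions of Nbeal2 lay almost all upstream of it, in introns of the neighbour Ccdc12: 7 of 8 were outside the gene. The strongest, chr9:110676443-110677204, lay 22.6 kb upstream with 10.1 and 10.2, a mean of 10.2 ± 0.0644. It is the region shown with RUNX letters over the summit and 5 bases after it, and with GATA and PU.1 letters. A region 31.6 kb upstream had 8.23 and 9.75, and it too held GATA, RUNX and ETS letters. The 2 strong regions were in the IDR lists of both replicates, and the strongest region found in 1 replicate only had 4.11, in replicate 2, at the promoter of Nradd.

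Vps33b encodes a Sec1/Munc18 protein, and Vipas39 its partner; the pair acts in the sorting of cargo to alpha granules, and loss of either in people causes the arthrogryposis, renal dysfunction and cholestasis syndrome. Vps33b (chr7:80269649-80291754, plus strand) had the strongest promoter of the 8 genes, chr7:80269075-80270181, with 15.6 and 16.1 and a mean of 15.8 ± 0.384. This stood at the 86.1 percentile of all open promoters by fold enrichment but at the 45.8 percentile by −log10 p. Its window was made up of promoters: 8 of 9 shared regions were within 1 kb of a start, and the strongest of them, that of Prc1, had 22.3 and 19.8. The only distal region of Vps33b, chr7:80284906-80285201 in exon 12, had 5.04 and 4.66, and no region was found in 1 replicate only.

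Vipas39 (chr12:87238868-87266256, minus strand) had 1 open promoter region, chr12:87265838-87267268, with 13.5 and 12.8 and a mean of 13.1 ± 0.451. The same region covered starts of the divergent neighbour Ahsa1, a co-chaperone gene, and of Gm47293, so its signal cannot be assigned to Vipas39 alone. A distal region in intron 2 of Vipas39 had 6.98 and 7.61. The strongest distal region of the window lay 73.1 kb from the 5′ end and beyond the gene, nearest to the start of Samd15, with 9.77 and 9.33. A region 8.82 kb upstream differed most between the replicates of all 94, with 4.41 in replicate 1 and 8.17 in replicate 2, and was in neither IDR list. Of the regions found in 1 replicate only, the strongest, at 4.47 in replicate 1, lay beside it.

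Slc35d3 encodes an orphan member of the nucleotide-sugar transporter family, and mouse mutants of it lack normal platelet dense granules. It is a short gene with 1 annotated start (chr10:19847916-19851459, minus strand). Its promoter region, chr10:19850533-19851071, had 5.62 and 6.45 and a mean of 6.04 ± 0.586. That mean was the lowest of the 8 when each gene was taken at its strongest start. At the 5′ ends the means of Plek, 6.03, and Rab27b, 5.83, were lower, but their replicate values overlapped those of Slc35d3. The Slc35d3 region began 388 bp inside the gene, in exon 1. The summits of the replicates were 288 bp apart, against a median of 8 bp over the 94 regions. The region was in neither IDR list of the samples, and it was in the conservative IDR list of the pooled samples.

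The window of Slc35d3 held 3 shared regions, the fewest of the 8. A distal region 46.5 kb from the 5′ end, downstream of the gene (chr10:19804824-19805146), was higher than the promoter, with 9.48 and 11.8 and a mean of 10.6 ± 1.64. It is the Slc35d3 sequence shown with PU.1 letters, and the start of Slc35d3 was the nearest protein-coding start to it. The third region, 11.4 kb from the 5′ end, had 6.22 and 5.76. Of 3 regions found in 1 replicate only, the strongest had 5.04 in replicate 1.

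Among the genes for secretion, Rab27a and Rab27b encode 2 closely related GTPases that tether secretory granules; Rab27a is mutated in the ashen mouse and Rab27b serves platelet dense granules. Rab27a (chr9:73044854-73097629, plus strand) had 1 open promoter region, chr9:73044137-73045140, with 8.99 and 9.09 and a mean of 9.04 ± 0.0706. Rab27b (chr18:69979131-70141605, minus strand) had a region of 5.63 and 6.04, 517 bp inside the 5′ end, and a region of 8.17 and 6.36 at an internal start, 88.2 kb into the gene in intron 2. A region over the 5′ end itself was listed in replicate 2 only, with 4.66. At the promoters the replicate values of Rab27a were thus all above those of Rab27b.

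The pair differed more in the surroundings of the promoter. Rab27a had 16 shared distal regions, 10.5 per 100 kb of its window, and Rab27b had 3, or 1.14 per 100 kb, in a window of 262 kb. In Rab27a 9 of the 16 lay in its own introns, from 13.5 to 47.1 kb into the gene, with mean fold enrichments from 3.63 to 8.92. Its strongest distal region lay 14.2 kb upstream, in an intron of Pigb, with 11.5 and 8.42 and a mean of 9.96 ± 2.17. In Rab27b all 3 distal regions were in intron 2, and the strongest had 7.61 and 8.23. Another, 95.6 kb into the gene, had 4.44 in replicate 1 and 6.75 in replicate 2, more than 1.5-fold apart. The strongest region of the Rab27a window found in 1 replicate only had 4.46, in replicate 2. All 3 distal regions of Rab27b held RUNX letters and 2 held GATA letters, while in Rab27a RUNX letters were in 5 of 16 and GATA letters in 4. Of the Rab27b distal regions only the strongest was in the IDR lists of both replicates. The others were in neither list, as were some of those of Rab27a.

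Unc13d encodes Munc13-4, a Rab27 effector that primes granules for fusion and is defective in a familial form of haemophagocytic lymphohistiocytosis. It is a compact gene (chr11:116062095-116077961, minus strand). Its main promoter region, chr11:116077304-116078624, had 8.92 and 9.63 and a mean of 9.28 ± 0.499. A weaker region at a further start, 885 bp into the gene, had 4.08 in each replicate. The strongest distal region lay 15955 bp upstream, between genes and nearest to the start of Wbp2, with 6.91 and 7.41. The strongest region in 1 replicate only had 3.84, in replicate 2. Only 1 of its 4 distal regions was inside the gene, in intron 13, with 4.98 and 5.58. Stronger regions of the window were promoters of other genes, such as that of Wbp2 at 13.3 and 13.5.

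Plek encodes pleckstrin, the main protein kinase C substrate of activated platelets, which is also abundant in leukocytes. In the annotation the gene spans chr11:16971206-17052381 on the minus strand, while its principal transcript begins 43.7 kb inside that span. The region at the start of the principal transcript, chr11:17008250-17009084, had 10.1 and 8.69 and a mean of 9.42 ± 1.03. The region at the outermost 5′ end, which it shares with a start of Cnrip1, had 5.93 and 6.13. A region at an internal start in intron 1 had 5.62 and 4.72. The start of the principal transcript was thus the most open in both replicates.

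Plek had the strongest distal region of the 8 windows. The median over its 14 distal regions was 6.61, against 7.12 over all shared distal regions. Of 7 distal regions in the 8 windows with a mean fold enrichment of at least 10, 5 were in the Plek window. Those 7 were 13.2% of the distal regions of the 8 windows, against 23.1% of all distal regions. The region chr11:16931998-16932773, the Plek sequence shown with 2 copies of the PU.1 letters, had 18.3 and 16.9 and a mean of 17.6 ± 1.00, at the 99.2 percentile of all shared distal regions. It lies beyond the 3′ end of Plek, 120 kb from the 5′ end, and the nearest protein-coding start is that of Fbxo48. Repeat-masked sequence made up 41.6% of this region, against a median of 10.1% over all shared distal regions. Within the gene, a region in intron 5 (chr11:16987476-16988351) had 14.6 and 14.1. Further regions beyond the 3′ end, 82.5, 84.4 and 95.7 kb from the 5′ end, had mean fold enrichments of 10.7, 12.3 and 12.2. These 5 were in the IDR lists of both replicates, while the strongest region in 1 replicate only had 3.02, in replicate 2. Which gene they act on is not shown by these data.

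**Figure D2:**
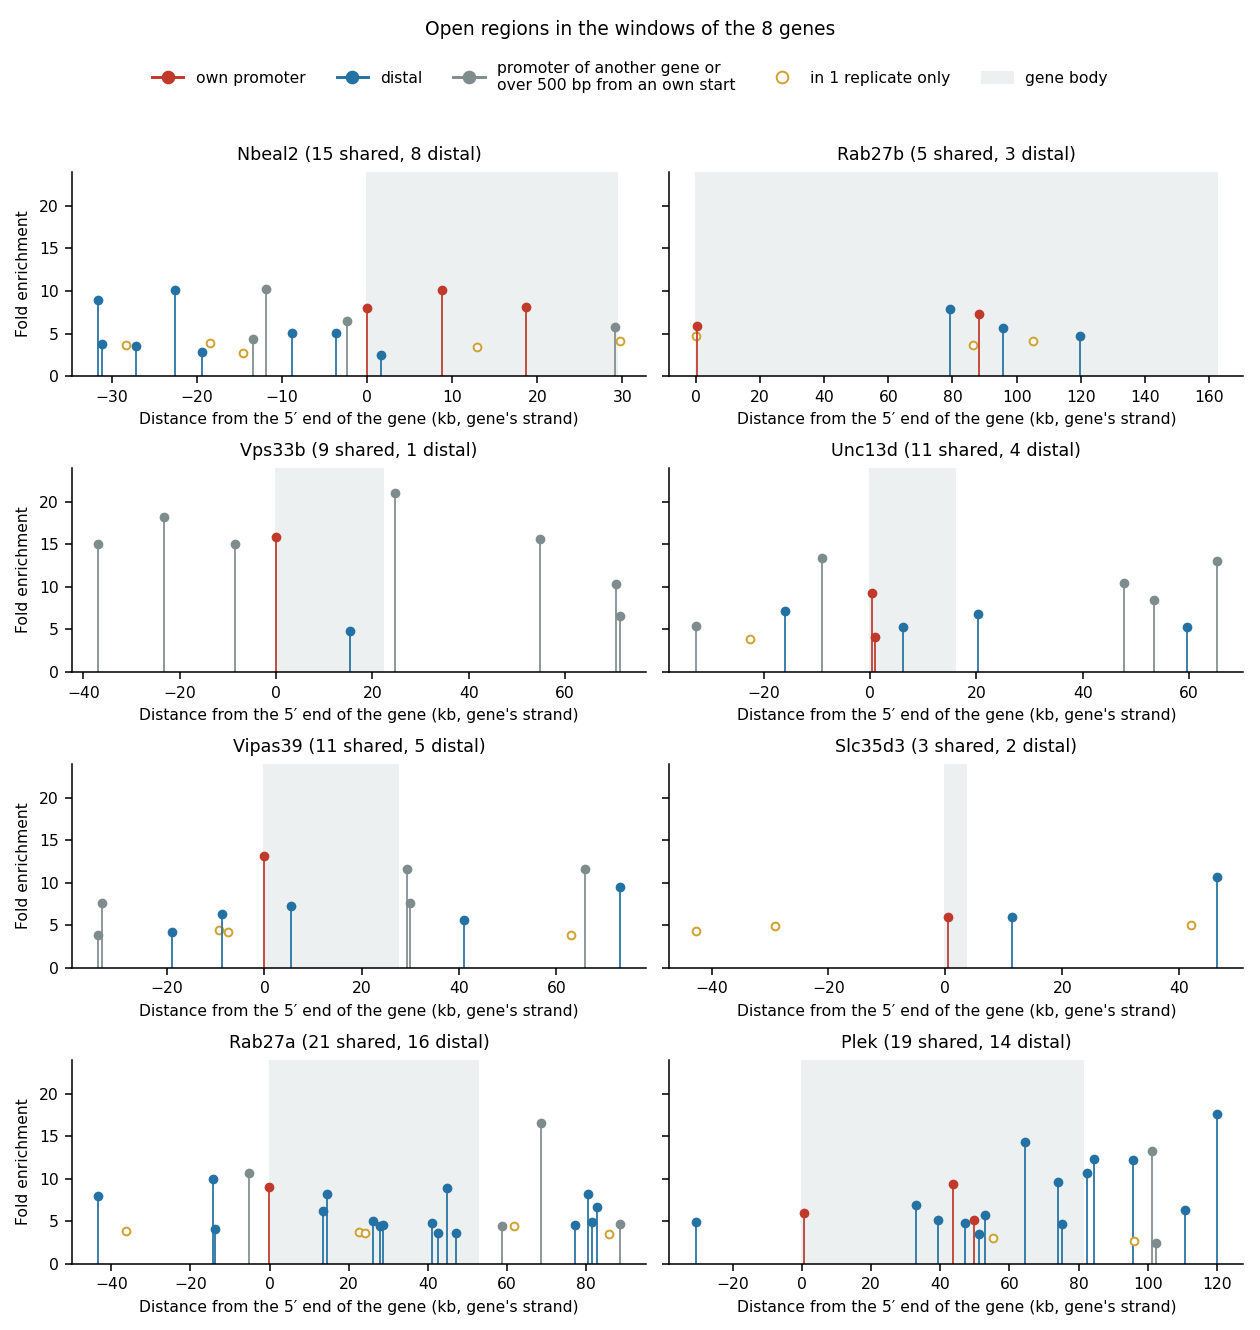
Mean fold enrichment of the shared regions in the window of each gene (filled points), by distance from the 5′ end in kb along the gene's own strand, and regions found in 1 replicate only (open points). The gene body is shaded. Distal regions crowd the Rab27a and Plek windows, with 16 and 14, while the Vps33b window holds tall promoters of other genes and 1 distal region.

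Over all 8 windows 53 of the 94 shared regions were distal, and 41 were within 1 kb of a start. Of those 41, 14 lay within 500 bp of a start of the 8 genes themselves, and the other 27 mostly belonged to neighbours. The promoter class took 43.6% of the 94 regions and 29.9% of all shared regions, introns took 39.4% and 36.4%, intergenic sequence 13.8% and 29.8%, and exons 3.19% and 3.88%. The windows were placed on genes by the rule, which the whole genome was not. All 8 genes had at least 1 distal region in the window, against 79.6% of all protein-coding genes. Of the 53 distal regions 24 lay in the bodies of the 8 genes, and for 26 the nearest protein-coding start was one of theirs.

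Per 100 kb of window, Rab27a had the most shared regions, at 13.7, followed by Nbeal2 at 11.6, Plek at 10.5, Unc13d at 9.49, Vipas39 at 8.63, Vps33b at 7.37, Slc35d3 at 2.90 and Rab27b at 1.90. The median over all protein-coding genes was 4.93 (quartiles 1.81 and 8.40), so 6 of the 8 genes were above it. For distal regions alone the values were 10.5 for Rab27a, 7.73 for Plek, 6.18 for Nbeal2, 3.92 for Vipas39, 3.45 for Unc13d, 1.93 for Slc35d3, 1.14 for Rab27b and 0.819 for Vps33b, against a median of 2.54 (quartiles 0.806 and 4.67). Rab27a, Plek and Nbeal2 were above the upper quartile of all genes, and Vps33b was just above the lower quartile.

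**Figure D3:**
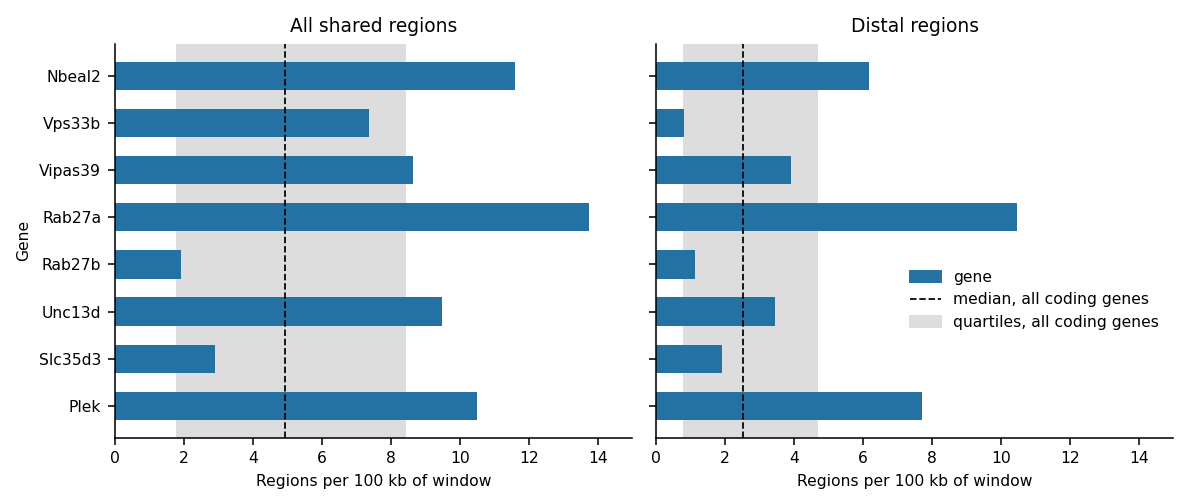
Shared regions (left) and shared distal regions (right) per 100 kb of window for each gene (bars), with the median (dashed line) and quartiles (grey band) over all protein-coding genes. Vps33b passes the median for all shared regions, at 7.37, and lies below it for distal regions, at 0.819.

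The distal regions of the 8 windows were weaker at the median than those of the whole genome. Their median fold enrichment was 5.60 in the 53 regions of the 8 windows, against 7.12 over all 48720 shared distal regions (quartiles 5.38 and 9.73). Of the 53, 13.2% reached 10-fold, against 23.1% of all distal regions. By class, the median was 5.20 for 37 regions in introns against 6.97 for all such regions, and 7.16 for 13 intergenic regions against 7.34. GC content was close in the 2 sets, with medians of 47.4% and 48.0%. Of the 94 shared regions 48 had an IDR-listed peak in both samples, which is 51.1%, against 53.3% of all shared regions.

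The replicates matched at these genes about as they did elsewhere. Over the 94 regions the median log2 ratio (replicate 1 over replicate 2) was -0.0062 and its SD 0.22, against -0.047 and 0.24 over all shared regions. Replicate 1 was higher in 47 of the 94, against 28505 of all 69539 (41.0%). The ratio passed 1.5-fold in 2 regions, the Vipas39 and Rab27b regions named above, which is 2.13% of the 94 against 3.57% of all. A further 9 regions were listed in replicate 1 only and 13 in replicate 2 only, with fold enrichments from 2.69 to 5.04 and a median of 3.86. The depth of the libraries is unknown, and a region absent from 1 list may still be open there.

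**Figure D4:**
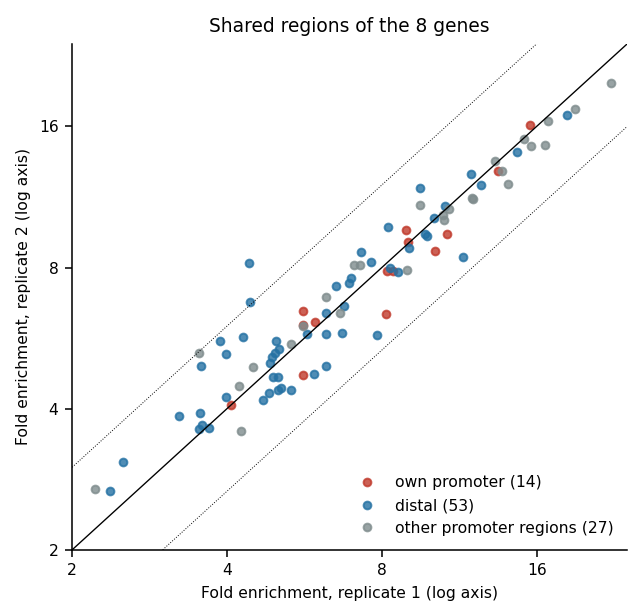
Fold enrichment in replicate 1 and replicate 2 of the 94 shared regions of the 8 genes, on log axes, by class. The solid line marks equal values and the dotted lines a ratio of 1.5. The 2 points above the upper dotted line are distal regions of Vipas39, at 4.41 and 8.17, and Rab27b, at 4.44 and 6.75.

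Sequences at the promoters are shown for 4 genes from RefSeq (GRCm38.p6), because they differ in letters while all 4 genes were called open. Those of Nbeal2, Rab27a and Plek overlapped a shared region. That of Slc35d3 did not, since its shared region began inside the gene. The RefSeq table matched Nbeal2, Vipas39, Rab27a, Slc35d3 and Plek, with 7 entries in all, and had none under the names Vps33b, Rab27b and Unc13d. Both Vipas39 entries and a second Rab27a entry are not shown. GATA letters were in 1 of the 7 entries, a Vipas39 entry that overlapped no shared region. Each line gives the 250 bases before the start on the gene's strand, and capitals mark the GATA, RUNX and ETS letters and the KLF and SP letters CCACCC or CCGCCC and the NFY letters CCAAT, on either strand.
Nbeal2 chr9:110654162-110654411: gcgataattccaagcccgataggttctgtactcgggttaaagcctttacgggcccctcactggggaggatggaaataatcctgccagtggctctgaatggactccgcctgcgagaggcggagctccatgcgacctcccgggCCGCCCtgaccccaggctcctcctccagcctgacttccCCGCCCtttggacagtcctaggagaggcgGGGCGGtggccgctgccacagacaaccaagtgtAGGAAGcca
Rab27a chr9:73044560-73044809: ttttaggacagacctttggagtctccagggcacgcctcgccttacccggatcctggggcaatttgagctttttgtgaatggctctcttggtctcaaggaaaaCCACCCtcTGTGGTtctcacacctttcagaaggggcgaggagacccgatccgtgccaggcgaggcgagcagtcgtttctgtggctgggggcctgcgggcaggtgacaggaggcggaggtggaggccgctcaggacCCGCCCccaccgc
Slc35d3 chr10:19851460-19851709: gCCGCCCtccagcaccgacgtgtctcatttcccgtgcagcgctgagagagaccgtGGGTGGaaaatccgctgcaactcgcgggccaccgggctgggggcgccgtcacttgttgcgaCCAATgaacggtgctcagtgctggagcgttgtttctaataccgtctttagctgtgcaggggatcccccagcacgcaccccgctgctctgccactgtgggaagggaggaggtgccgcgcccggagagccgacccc
Plek chr11:17008719-17008968: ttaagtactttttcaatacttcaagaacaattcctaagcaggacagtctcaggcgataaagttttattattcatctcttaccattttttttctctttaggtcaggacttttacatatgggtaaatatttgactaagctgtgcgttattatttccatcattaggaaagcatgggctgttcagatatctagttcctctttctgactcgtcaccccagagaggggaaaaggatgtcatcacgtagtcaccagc
The Nbeal2 sequence held 3 matches to the KLF and SP letters and an ETS match 9 bases before the start. Those of Rab27a and Slc35d3 held KLF and SP letters too, with RUNX letters in Rab27a and NFY letters in Slc35d3. None of these letters was in the Plek sequence, although the region over it had a mean of 9.42. In the full entries of 300 bases, which run 50 bases past the start, 53.0% of all 32619 RefSeq promoters held KLF and SP letters, 45.1% ETS, 37.6% NFY, 22.3% RUNX and 18.6% GATA letters.

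Across all 53 distal regions the motif counts were set beside those of every shared distal region, within 100 bp of the summit. GATA letters were in 13 of 53 (24.5%), against 15.1% of all, and PU.1 letters in 11 (20.8%), against 12.0%. ETS letters were in 31 (58.5%), against 53.7%, and RUNX letters in 14 (26.4%), against 28.7%. The E-box letters of TAL1, CAGATG or CAGCTG, were in 30.2% against 28.2%, and the C/EBP letters TTGCNNAA in 17.0% against 15.6%. Those of AP-1 and NF-E2, TGAGTCA or TGACTCA, were in 3 of 53 (5.66%), against 8.43%, and the CLEAR letters of lysosomal genes, TCACGTGA, in 0 against 0.252%. The KLF and SP letters were in 28.3% against 23.4%, and the NFY letters in 17.0% against 21.1%. The CTCF letters AGGGGGC or AGGTGGC were in 9.43% against 13.1%, and the YY1 letters AAGATGGC in 3 of 53 (5.66%) against 1.28%. The CRE letters TGACGTCA or TGACGTAA were in 1 region (1.89%) against 0.741%, and the NRF1 letters GCATGCGC in 0 against 0.427%. By gene, GATA letters were in 4 of 16 distal regions of Rab27a, 3 of 8 of Nbeal2, 2 of 3 of Rab27b, 2 of 4 of Unc13d and 2 of 14 of Plek, and in none of the 8 distal regions of Vps33b, Vipas39 and Slc35d3. Neighbouring regions share a window, so the 53 are not independent, and no test was made.

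**Figure D5:**
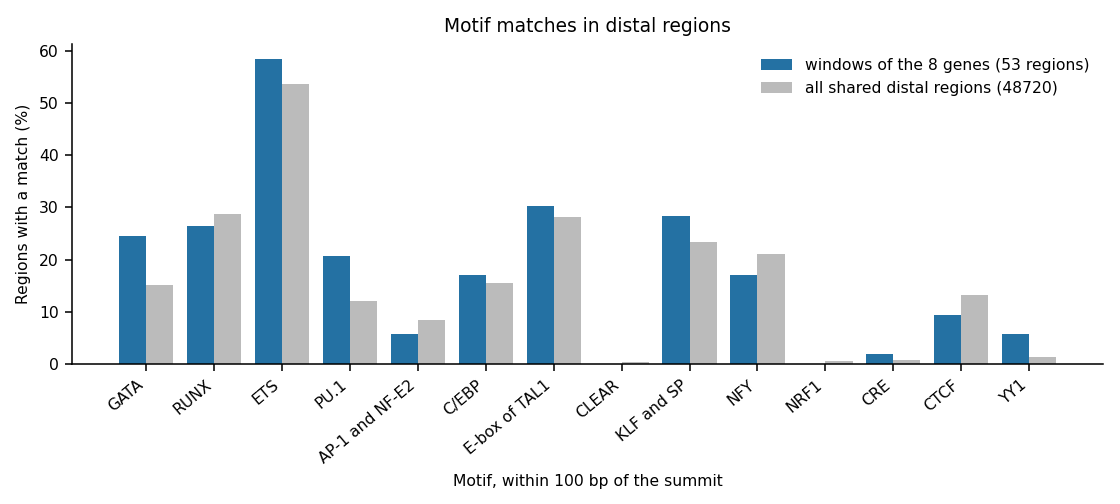
Share of distal regions with an exact match within 100 bp of the summit, for the windows of the 8 genes (blue) and for all shared distal regions (grey), by motif. GATA letters stand at 24.5% and 15.1% and PU.1 letters at 20.8% and 12.0%, while RUNX letters stand at 26.4% and 28.7%.

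Genes that work with these 8 were described from 3 lists, and 46 of 52 matched genes (88.5%) had an open promoter, against 59.8% of all protein-coding genes. All 23 granule biogenesis genes, among them those of the Hermansky-Pudlak complexes, the adaptor AP-3 and the HOPS tether, were open. The median fold enrichment was 9.35 for the 8 genes, against 13.2 for this list and 11.5 for all open promoters. The highest were Vps41 at 18.4 and 16.7 and Vps33a at 17.2 and 15.9, both HOPS subunits, and Bloc1s1 at 14.5 and 15.6. Of 20 exocytosis genes 15 were open, led by Tbc1d10a, which encodes a Rab27 GTPase-activating protein, at 23.8 and 24.1, then the SNARE gene Vamp3 at 15.3 and 14.7 and the Munc18 gene Stxbp3 at 14.7 and 14.6. The 5 without an open promoter were Exph5, Mlph, Myrip, Sytl4 and Sytl5, which encode Rab27 effectors. Other Rab27 effector genes were open, among them Sytl1 with a mean of 5.93, Sytl2 with 7.38 and Unc13d with 9.28. Sytl4 and Sytl5 lie on chromosome X, of which male cells hold fewer copies than of each autosome, while Exph5, Mlph and Myrip lie on autosomes. A part of copy number in the missing calls was not tested.

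Of 10 paralogues of the 8 genes 9 had an open promoter. Vps33b had 15.6 and 16.1, and its paralogue Vps33a, which works in HOPS, had 17.2 and 15.9, so the replicate values overlapped. Nbeal2 had 10.7 and 9.42, below the 14.9 and 15.8 of Nbeal1. Slc35d3 had 5.62 and 6.45, below the 14.5 and 13.1 of Slc35d2. Unc13c had no open promoter, and Nbea was open only at an internal start, with 3.63 and 4.06. Unc13d had 8.92 and 9.63, below the 13.0 and 13.7 of Unc13b and the 12.3 and 10.5 of Unc13a.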

How the data were processed

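The data were ATAC-seq peak lists of 2 replicates of mouse megakaryocytes, called on mm10 from filtered alignments, per the file records. The peak caller and the aligner are not given in the sources used here. The fold enrichment (a ratio, column 7) and the −log10 p of each peak (column 8) were used as deposited; their meaning is that of the peak format, since no file has a header. No scaling between samples is stated, and no column of values was left unmapped.

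Overlapping peaks (1 bp or more) of each sample's pseudoreplicated list were joined on chromosomes 1 to 19 and X, keeping the highest fold enrichment and its summit. A shared region is the union of regions that overlap between the replicates by at least 1 bp. Genes and starts are those of GENCODE M21. Summits for sequences are those of the stronger replicate. Sequence was read from GRCm38.p6, whose chromosomes are those of mm10. SDs are over n = 2. The interval and motif steps were tested on simulated data against direct counting, with Python 3.11.15 and NumPy 2.4.6. The alternatives were other peak lists, overlaps, windows and starts, −log10 p, and each replicate left out.

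The 8 genes, the lists and the motifs were chosen with earlier results of these data known. All 8 genes were named with their promoter regions, strongest distal region and strongest region in 1 replicate only, and of each pathway list the 3 genes with the strongest promoter by mean fold enrichment and those with no open promoter. Other regions and genes given were chosen after their values were seen. Vamp7 was not analysed here, and 1 megakaryocyte marker beyond the 12 given is not reported here.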

Additional observations from a re-analysis of the deposited data

How the results depend on the processing

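Of 48 recomputed values 13 moved: a count by over 1.5 times, or a median by more than a limit. For promoter fold enrichment the limit was the SD between the replicates, 0.223. The log2 ratio has a single value for the pair of replicates, so no such SD exists for it. Its limit of 0.0044 was scaled from the main median itself, so its moves mean only that the value changed. The 94 shared regions became 48 with the IDR lists, 39 in gene bodies only and 148 with windows of 100 kb. The 53 distal regions became 20 with the IDR lists, 26 where the nearest protein-coding start had to be a member's and 85 with windows of 100 kb. GATA letters were in 6 of the 20 distal regions with the IDR lists, in place of 13 of 53. Of the 53 distal regions, 6 held them within 50 bp and 20 within 200 bp of the summit. The shares over all distal regions under these settings are not given here, so the contrast with the whole genome was not followed. The median promoter fold enrichment fell to 8.54 at the 5′ end only, against 9.35. The median log2 ratio of the replicates was -0.15 on −log10 p, 0.0503 with the IDR lists and 0.0325 with peaks of at least 4-fold, in place of -0.0062. The IDR lists, the 4-fold limit, the nearest-start rule and the windows around genes change which regions enter; the motif windows change the bases searched, and the 5′ end changes the region taken. For −log10 p the cause was not tested. The number of genes with an open promoter stayed at 7 or 8, and that of pathway genes between 44 and 46. Leaving out a replicate gave 105 to 107 regions, 62 to 64 distal regions and a median promoter fold enrichment of 9.25 to 9.57. In place of a percentile for −log10 p, the members above the median of all open promoters were counted, each at its region of highest fold enrichment: 3, against 2 by fold enrichment. No paired analysis was possible because the series has 1 group. Depth is unknown, and its effect was not measured.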

Other observations

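The list of replicated peaks called on the pooled samples held 14 regions in the 8 windows that were in neither replicate's own list, with fold enrichments from 2.62 to 5.65. Of these, 4 were in the Rab27a window, 4 in that of Slc35d3, 2 in that of Plek and 1 each in those of Nbeal2, Vipas39, Rab27b and Unc13d. At Slc35d3 a pooled region, chr10:19851453-19851849, covered the annotated start with a fold enrichment of 3.67, 202 bp upstream at its summit, where neither replicate listed a region. This region overlaps the Slc35d3 promoter sequence given above. Of the other pooled regions at Slc35d3, that 1.46 kb into the gene had 3.57, and the strongest of all 14 had 5.65.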
